A study of Bos taurus with 15 samples.

Results

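Bovine blastocysts grown after machine removal of the cumulus cells were compared with blastocysts grown after removal by hand. The 10 libraries compared, of 15 in the series, were chosen by their labels: 5 carry the label of automatic cumulus denudation and 5 that of manual denudation, and every gene of the deposited count table was examined. In both groups the cumulus was taken off Bos taurus zygotes, which were then cultured in SOF medium, a synthetic oviduct fluid, until day 7, so culture is shared and the way of denudation is the labelled difference. The labels' protocols give a stranded poly(A) RNA-seq library for each sample and a design of 5 day 7 blastocysts per group. The other 5 libraries are blastocysts collected in vivo, which entered the model for its estimate of the spread and are given here for context. Breed, donor, sire, embryo sex and culture batch are not in the labels. Whether a library holds 1 embryo or several is not stated outright, though the design of 5 blastocysts per group would match 1 per library. The p-values therefore reflect the scatter of these libraries alone, which may be partly technical.

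The cumulus is a layer of follicular cells that surrounds the oocyte and is still attached to the zygote after fertilisation. Embryologists strip it by pipetting, vortexing or a device, and the naked zygote then cleaves and forms a blastocyst with an outer epithelium, the trophectoderm, around a fluid cavity and an inner cell mass that holds epiblast and hypoblast. The trophectoderm pumps fluid, takes up nutrients through a microvillous surface, and in cattle makes interferon tau, prostaglandins and pregnancy-associated glycoproteins. Cells make cholesterol from acetyl-CoA through the mevalonate pathway, and the SREBP transcription factors raise the genes of this pathway when membrane sterol is low.

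The depth of the libraries was alike in range. Totals in megacounts (M) ran from 19.7 to 33.5 M after automatic and from 17.96 to 29.9 M after manual denudation. The libraries differed more in how many genes they detected. Genes with 10 or more counts numbered 11477, 7686, 12053, 6977 and 10641 in automatic 1 to 5 and 11797, 8346, 10243, 10879 and 9900 in manual 1 to 5. Automatic 2, automatic 4 and manual 2 lay under 9000 genes and are called low-detection libraries, as are in vivo 2 and 4. Mitochondrially encoded transcripts took 3.33% to 9.38% of counts after automatic and 3.26% to 14.4% after manual denudation. The share was 8.18%, 9.38% and 14.4% in the low-detection libraries automatic 2, automatic 4 and manual 2. It was 9.99% in manual 5, which is not a low-detection library. The mean number of detected genes was 9767 ± 2293 against 10233 ± 1278 (SD, n = 5 each), a difference that did not exceed the spread (exact two-sided permutation p = 0.722). The mitochondrial share (p = 0.651) and the total (p = 0.571) did not exceed it either by the exact permutation test, and the adjusted p over the 3 measures was 0.722 for each. Log2 differences of single genes are given with all libraries and, as the comparison asks, without the low-detection libraries, which leaves 3 automatic against 4 manual. A value in parentheses straight after a log2 difference is the same difference without the low-detection libraries. Wherever 5 values of a group are listed, they stand in the order of libraries 1 to 5.

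**Figure D1:**
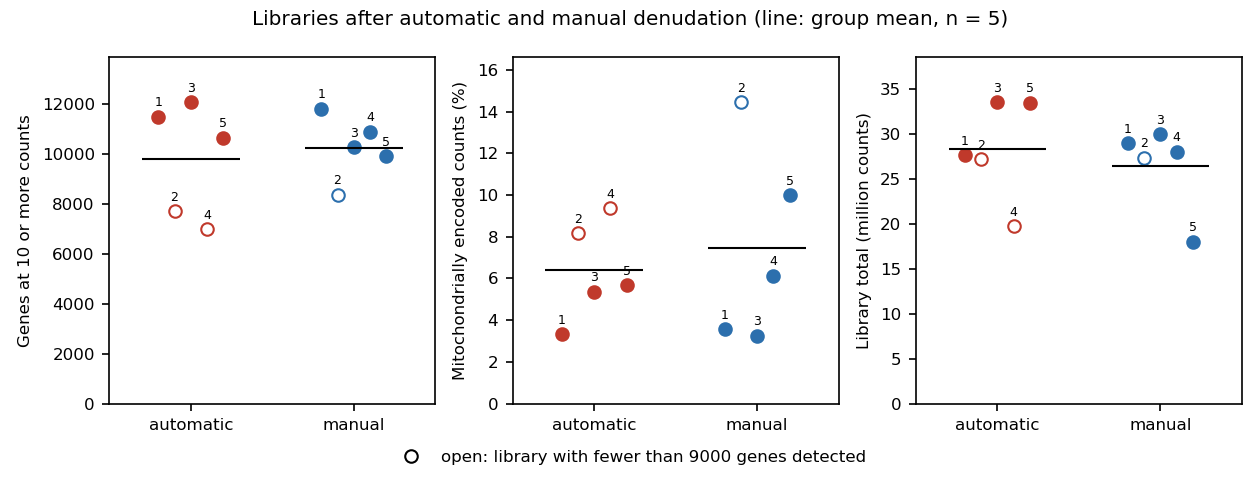
Genes with 10 or more counts (left), mitochondrially encoded share of counts in percent (middle) and library total in M counts (right) for each automatic and manual library, numbered by replicate. Lines are group means, and open circles mark automatic 2, automatic 4 and manual 2, the libraries under 9000 genes.

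The libraries carried the transcripts of a blastocyst. KRT18, a keratin of simple epithelia such as the trophectoderm, was present at 1434 to 3302 CPM (counts per M counts of the library, after TMM scaling) after automatic and 3699 to 12159 CPM after manual denudation. The pluripotency factor POU5F1 lay at 118, 281, 239, 539 and 420.5 CPM in automatic 1 to 5 and 154, 209, 520.1, 280.2 and 275 CPM in manual 1 to 5, so the groups overlapped. GATA6, a hypoblast factor, lay at 49.9, 213, 198, 634 and 186 CPM after automatic and 70.1, 167, 146, 269 and 253 CPM after manual denudation and overlapped too, with its highest value in automatic 4. Of the trophectoderm factors, GATA3 ranged over 8.53 to 159 and 32.9 to 153 CPM and CDX2 over 0 to 8.84 and 3.45 to 15.5 CPM, with the lowest GATA3 values in automatic 2 and automatic 4. NANOG and SOX2, both pluripotency factors, spanned 4.68 to 94.4 and 4.41 to 88.5 CPM after automatic and 19.1 to 106 and 8.17 to 29.4 CPM after manual denudation. GATA4, a later hypoblast factor, did not exceed 1.40 CPM in any of the 10 libraries, and SOX17 did not exceed 0.218 CPM and was too low to be tested. The 95% interval of each factor tested held 0. Log2 differences (automatic minus manual, ± SE) were -0.40 ± 0.77 for GATA3, -0.90 ± 1.30 (-0.52 ± 1.07) for CDX2, 0.15 ± 0.54 for POU5F1, -0.15 ± 0.59 (-0.19 ± 0.49) for NANOG, 0.83 ± 0.88 for SOX2, -0.60 ± 1.67 (-0.45 ± 1.83) for GATA4 and 0.50 ± 0.56 for GATA6. The intervals are wide: the 95% interval of POU5F1 ran from -0.98 to 1.28 and that of CDX2 from -3.61 to 1.81. Without the low-detection libraries POU5F1, SOX2 and GATA6 changed sign, to -0.23 ± 0.48, -0.23 ± 0.80 and -0.34 ± 0.51, and GATA3 came to 0.00 ± 0.41.

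Over all genes the 2 groups were close in their means and wide in their spread. With all libraries 0 of 11578 genes kept by the expression filter (0%) had an adjusted p under 0.05 by edgeR's quasi-likelihood test with Benjamini-Hochberg adjustment. At an unadjusted p under 0.05 stood 69 genes higher (0.596%) and 102 lower (0.881%) after automatic denudation, 1.48% in all. Of all genes 47.1% lay above and 52.9% below 0, and the counts of each gene list are to be read beside these shares. DESeq2 called 57 genes and limma-voom with sample quality weights 1, CYP51A1. The median log2 difference over all genes was -0.05, the median size of a difference 0.55 and the median SE 1.26. The mean log2 levels of the groups correlated at Pearson r = 0.917 across genes, which are not independent replicates. The interval of the difference lay within 2-fold for 3.28% of genes and within 4-fold for 24.0%, so for most genes a 4-fold difference could not be detected or bounded at this spread.

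The spread was smaller without the low-detection libraries. The median SE was then 0.83, 1 of 12329 genes was called (0.00811%), 233 stood higher (1.89%) and 270 lower (2.19%) at an unadjusted p under 0.05, together 4.08%, and 8.31% of genes were bounded within 2-fold and 41.0% within 4-fold. Of all genes 48.6% then lay above and 51.4% below 0. At that level 31 genes were higher and 65 lower in both analyses, and 73.7% of the 11571 genes kept in both had the same sign. These counts also turned on single libraries. With all libraries, 300 genes passed the unadjusted level without automatic 3 and 346 without manual 1, against 171. Without the low-detection libraries, 318 passed without automatic 1 and 1032 without manual 1, against 503. The balance of direction turned on single libraries too: lower genes made up 59.6% of the 171 genes, 27.2% without manual 1, 45.8% without automatic 2, 47.1% without manual 3 and 71.0% without automatic 3.

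Another description asks whether every automatic library lay on one side of every manual library. With so few libraries some genes meet this by chance, so a lack of overlap does not by itself show a difference. With all 10 libraries the groups were fully apart for 16 genes higher (0.138%) and 61 lower (0.527%) after automatic denudation. Among genes with a mean of at least 20 CPM there were 9 higher and 39 lower. Manual 3 was the highest manual library for 25 of the 61 lower genes, manual 1 the lowest for 26, and automatic 2 and automatic 4 were each the lowest automatic library for 25. Automatic 4 was the highest automatic library for 11 of the 16 higher genes. Without the low-detection libraries 359 genes (2.91%) lay higher and 333 (2.70%) lower without overlap, as fewer libraries need to be apart.

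**Figure D2:**
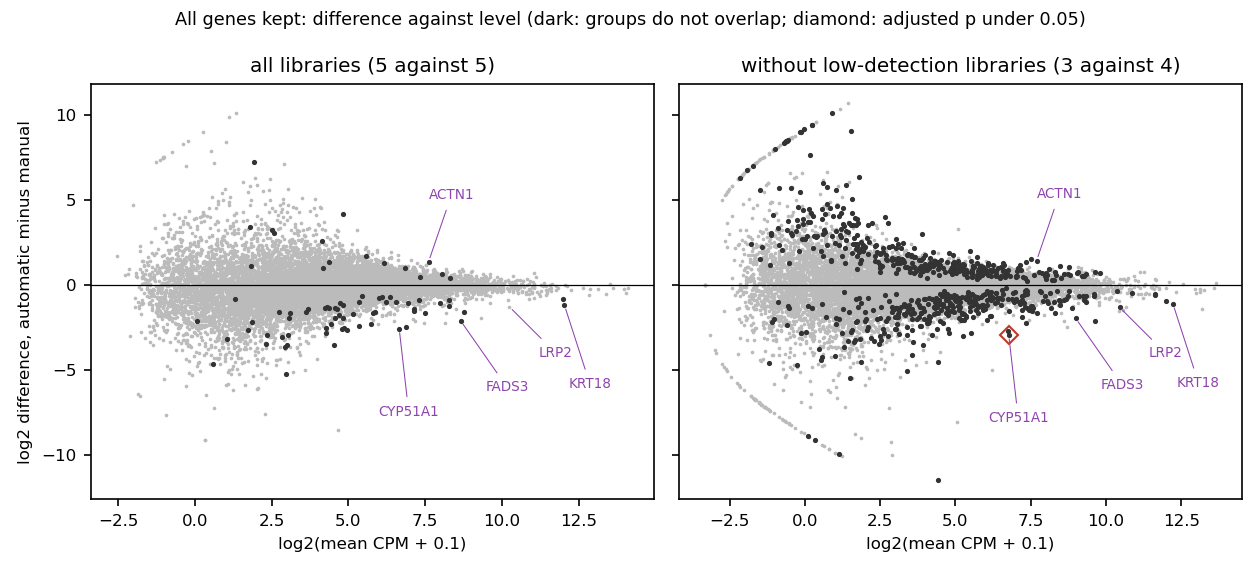
Log2 difference between automatic and manual denudation against log2(mean CPM + 0.1) for each gene kept, with all libraries (left, 11578 genes) and without low-detection libraries (right, 12329 genes). Dark points are genes whose groups do not overlap, and the diamond is CYP51A1, the 1 gene with an adjusted p under 0.05. Differences widen toward low levels, and the arcs at the edges are genes with counts in 1 group alone.

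The gene that stood apart was CYP51A1, the lanosterol demethylase of cholesterol synthesis. It lay at 23.2, 73.0, 18.2, 5.48 and 26.6 CPM in automatic 1 to 5 and at 151, 162, 196, 165 and 183 CPM in manual 1 to 5. The manual libraries sat close together, and the highest automatic library, the low-detection library automatic 2, was still below the lowest manual one. In vivo the level was 57.7 ± 57.0 CPM (SD, n = 5). The log2 difference was -2.55 ± 0.85 with all libraries, and its adjusted p by edgeR was 0.9999. Without the low-detection libraries CYP51A1 fell, with a log2 difference of -2.92 ± 0.38, an interval of -3.73 to -2.11 and an edgeR adjusted p of 0.0363. The size held in every other setting tried without the low-detection libraries, between -3.03 and -2.79, while the adjusted p ran from 1.09e-14 with DESeq2 to 0.605 without automatic 3. By edgeR the call was lost on leaving out any 1 of automatic 1, 3 and 5 and manual 1, 3, 4 and 5, with an adjusted p of 0.0921 to 0.605. It was also lost when libraries under 10000 genes were left out (edgeR adjusted p = 0.0598) and with the replicate number as a block (edgeR adjusted p = 0.259).

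Most other genes of cholesterol synthesis lay on the same side. Of 22 members, all of them kept, 18 lay below and 4 above 0, with a median log2 difference of -0.89, where 52.9% of all genes lay below 0 and the median was -0.05. At an unadjusted p under 0.05 there were 6 members lower, CYP51A1, SC5D and IDI1 among them, and 1 higher (GGPS1), and 0 were called, where 0.881% of all genes were lower and 0.596% higher at that level. For 4 members, CYP51A1, SC5D, SQLE and NSDHL, every automatic library lay below every manual one, as for 0.527% of all genes. Over the other libraries alone 20 of 22 lay below 0, the median was -1.05, 13 were lower at the unadjusted level, 11 did not overlap, all lower, and CYP51A1 alone was called. Over all genes the matching shares were 51.4% below 0, 2.19% lower at the unadjusted level and 2.70% lower without overlap. These genes were chosen with earlier results of the same libraries known, so the counts are a description.

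Along the pathway the early enzymes differed to unequal degrees. ACAT2, which makes acetoacetyl-CoA, and HMGCS1, which makes HMG-CoA, differed by -0.98 ± 0.48 and -0.81 ± 0.65 with all libraries and by -1.27 ± 0.37 and -1.54 ± 0.45 without the low-detection ones. IDI1, the isomerase that makes the second building block of isoprenoids, lay at 23.8, 92.6, 37.0, 18.9 and 24.1 CPM after automatic and 87.1, 84.7, 86.2, 111 and 126 CPM after manual denudation. Automatic 2 sat among the manual libraries and the other 4 automatic libraries sat below all of them, with a difference of -1.33 ± 0.55 (-1.84 ± 0.41). FDPS, which makes farnesyl diphosphate, was at 71.9, 261, 86.9, 56.8 and 98.5 CPM after automatic and 254, 178, 240.1, 200.4 and 278 CPM after manual denudation, and its difference of -0.9999 ± 0.74 became -1.49 ± 0.28 without the low-detection libraries. GGPS1, which draws farnesyl diphosphate away to geranylgeranyl diphosphate, was the 1 member above 0 at the unadjusted level, at 45.2, 105, 53.9, 178 and 78.4 CPM after automatic and 44.6, 37.2, 20.4, 45.4 and 15.9 CPM after manual denudation and a difference of 1.49 ± 0.65 (0.92 ± 0.48). GGPS1 no longer passed that level without the low-detection libraries. The groups of GGPS1 overlapped only where automatic 1, at 45.2 CPM, lay just below manual 4, at 45.4 CPM.

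The sterol-forming steps from squalene onward held the 4 members without overlap. SQLE, squalene epoxidase, lay at 34.4, 49.1, 52.9, 0 and 9.96 CPM in automatic 1 to 5 and 59.7, 99.6, 87.4, 89.9 and 104 CPM in manual 1 to 5, with automatic 4 at 0, and differed by -1.59 ± 1.19 (-1.37 ± 0.51). SC5D, a late desaturase, lay at 90.0, 115, 86.6, 6.19 and 66.9 CPM after automatic and 126, 453, 171, 158 and 118 CPM after manual denudation, and manual 2 stood highest. Its difference of -1.49 ± 0.62 (-0.80 ± 0.34) was -0.97 without manual 2. NSDHL, which removes a carboxyl group during demethylation, was the tightest of the 4 after automatic denudation, at 64.6, 56.6, 62.1, 69.0 and 61.8 CPM against 134, 69.9, 117, 78.5 and 97.6 CPM and a difference of -0.66 ± 0.45 (-0.75 ± 0.34). MSMO1, the sterol oxidase of the same step, lay at 180.2, 191, 166, 405 and 101 CPM in automatic 1 to 5 and 345, 609.7, 423, 376 and 412 CPM in manual 1 to 5, and only automatic 4 overlapped. HSD17B7, the ketoreductase of that step, lay at 1.47, 47.7, 1.21, 15.1 and 2.05 CPM after automatic and 12.8, 5.06, 22.8, 56.0 and 51.6 CPM after manual denudation. Its difference was -1.13 ± 1.08 with all libraries and -4.49 ± 0.78 without the low-detection ones, with an edgeR adjusted p of 0.387. FDFT1, squalene synthase, showed the same pattern, with -0.78 ± 0.78 and -1.45 ± 0.42. The value of TM7SF2, a sterol reductase, rests on manual 3 alone at 7.05 CPM, since 0 counts were listed in 8 of the other 9 libraries.

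Library by library, the lower levels were present in all 5 automatic libraries but uneven. Of 22 members, 13, 6, 11, 14 and 15 lay below all manual libraries in automatic 1 to 5, and 17, 12, 15, 17 and 17 lay below the manual median. Automatic 2 also had 5 members above all manual libraries, more than any other automatic library. The summed level of the list was 1287, 2171, 1261, 1429 and 909 CPM in automatic 1 to 5 and 2982, 2701, 2965, 2316 and 2422 CPM in manual 1 to 5, so no automatic library reached the lowest manual one. In vivo the sum ran from 1042 to 2861 CPM, which spans both groups.

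**Figure D3:**
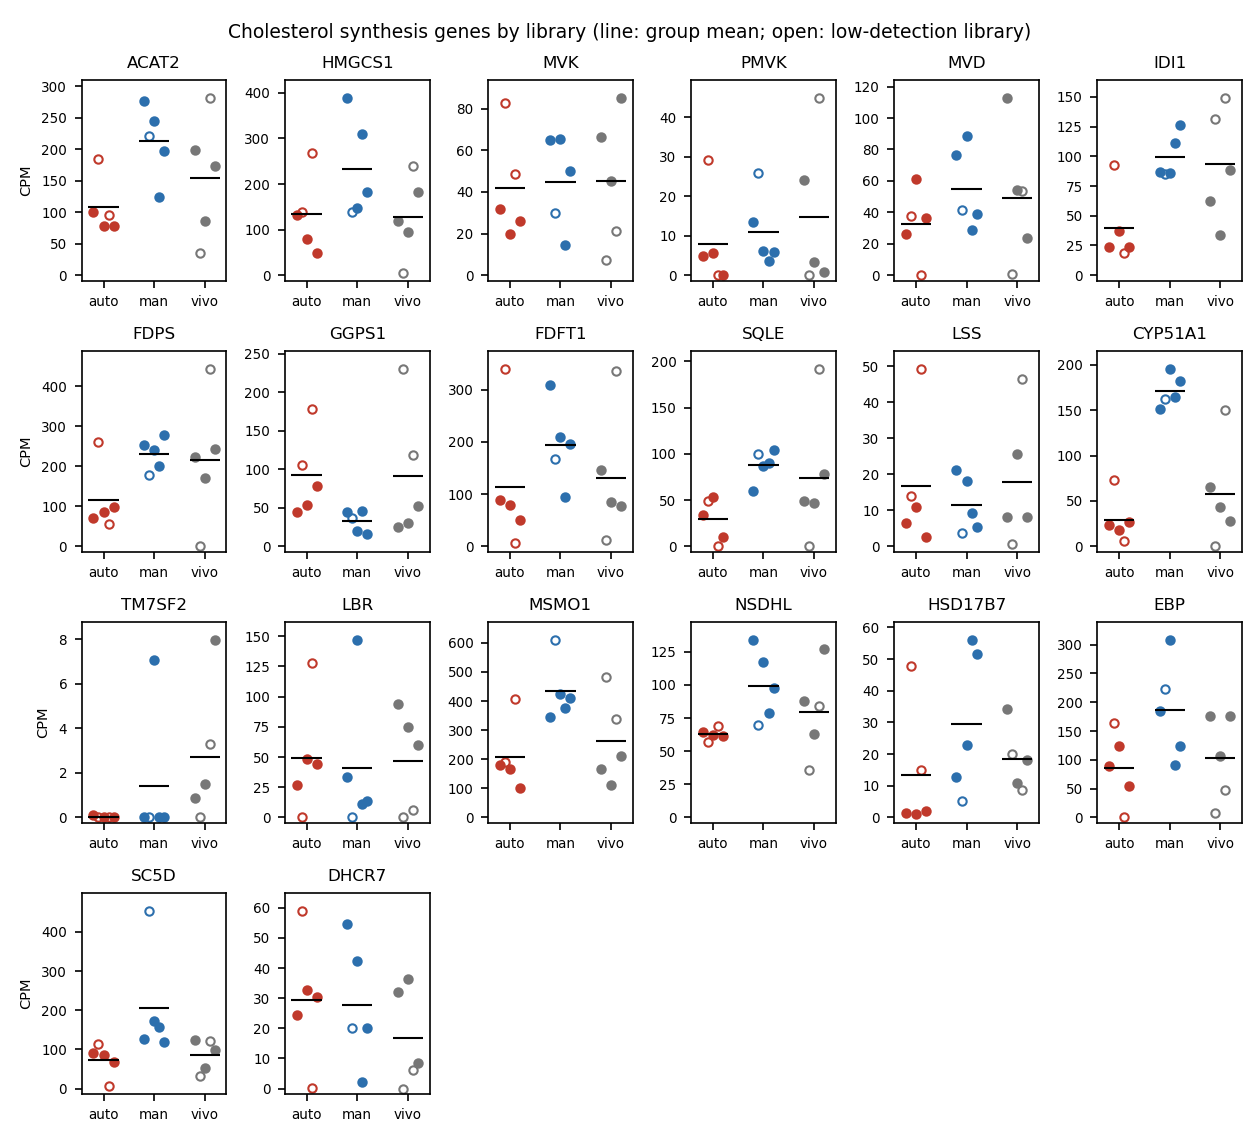
CPM of 20 of the 22 cholesterol synthesis genes in each library after automatic (auto) and manual (man) denudation and in vivo (vivo), in pathway order from ACAT2 to DHCR7. Lines are means of 5 libraries and open circles are low-detection libraries; CYP51A1, SQLE, NSDHL and SC5D show no overlap between automatic and manual.

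Genes that sense or take up sterol leaned the same way without a member passing the unadjusted level with all libraries. Of 20 members kept, of 23 listed, 14 lay below 0, with a median of -0.66. Without the low-detection libraries 17 lay below 0, with a median of -0.58, and 1 was lower at the unadjusted level. The share of all genes below 0 was 52.9%, and 51.4% without the low-detection libraries, where 2.19% were lower at that level. The 1 lower member was INSIG1, which holds SREBP in the endoplasmic reticulum and is itself an SREBP target. It lay at 10.1, 78.3, 8.85, 0 and 3.69 CPM in automatic 1 to 5 and 49.8, 46.2, 25.1, 14.9 and 42.9 CPM in manual 1 to 5. Automatic 2 was the highest of all 10 libraries and the other 4 automatic libraries were below all manual ones, so the difference moved from -0.83 ± 1.24 to -2.11 ± 0.64 without the low-detection libraries and was -2.64 without automatic 2 alone.

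In fatty acid metabolism SCD, FADS1, FADS3 and ELOVL1 were apart or nearly so, while FADS2, ELOVL6 and SCD5 did not share this. FADS2, the delta-6 desaturase, differed by -0.25 ± 0.97 with all libraries and 0.03 ± 0.56 without the low-detection ones, and the elongase ELOVL6 by -0.29 ± 0.47 and 0.24 ± 0.31. SCD5, a second stearoyl desaturase, lay the other way at 4.75 ± 2.38 and 0.40 ± 1.94. The elongase ELOVL5 differed by -0.73 ± 0.64 and -0.77 ± 0.42, and automatic 4 alone reached the manual libraries. Of 26 members of the list kept, 18 lay below 0 with a median of -0.27, 3 were lower at the unadjusted level (SCD, FADS1 and ACSS2) and 2, FADS1 and ELOVL1, did not overlap. Over all genes 52.9% lay below 0, 0.881% were lower at that level and 0.527% were lower without overlap. With the low-detection libraries left out the list split evenly, 14 below and 14 above 0, with 4 lower and 1 higher at the unadjusted level. SCD, which desaturates stearate to oleate, lay at 21.2, 5.92, 30.4, 82.6 and 26.4 CPM in automatic 1 to 5 and 179.5, 53.3, 179, 145 and 172 CPM in manual 1 to 5. Automatic 4 and manual 2, both low-detection, were the 2 libraries that overlapped, and the difference was -2.13 ± 0.67 with all libraries and -2.68 ± 0.54 without these (edgeR adjusted p = 0.638). FADS1, the delta-5 desaturase, lay at 75.6, 7.29, 67.1, 0.719 and 29.5 CPM after automatic and 215, 147, 332, 133 and 171 CPM after manual denudation and differed by -2.47 ± 0.85 (-1.86 ± 0.41). ELOVL1, an elongase of long chains, lay at 87.9, 47.5, 101, 79.9 and 67.5 CPM after automatic and 195, 115, 335, 148 and 216 CPM after manual denudation and differed by -1.40 ± 0.67 (-1.37 ± 0.33). FADS3, a further member of the desaturase family, had the smallest p of all genes with all libraries (unadjusted p = 2.50e-04, edgeR adjusted p = 0.9999). It lay at 144, 106, 246, 86.7 and 182 CPM in automatic 1 to 5 and 439, 252.1, 1658, 339.9 and 553 CPM in manual 1 to 5, without overlap. Manual 3 was far above the next manual library, and the difference of -2.08 ± 0.46 (-1.95 ± 0.50) was -1.36 without it.

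The named epithelial genes KRT18, KRT19, PLS1 and SCIN had lower means after automatic denudation, while the cytoskeleton list was balanced, with 14 of 25 members above 0 and a median of 0.03. In these bulk libraries fewer cells of a type and less RNA per cell cannot be told apart. KRT18 lay at 2051, 2861, 3302, 1434 and 3209 CPM in automatic 1 to 5 and 3699, 4015, 12159, 4052 and 4917 CPM in manual 1 to 5. Every manual library was above every automatic one, and manual 3 stood far above the rest. Its difference was -1.17 ± 0.35 (-1.099 ± 0.40), or -0.69 without manual 3. KRT19, another keratin, lay at 129.8, 268, 372, 237 and 311 CPM after automatic and 953, 279, 2610.4, 465 and 763 CPM after manual denudation, overlapped through manual 2, and differed by -1.94 ± 0.68 (-2.12 ± 0.59), or -1.21 without manual 3. KRT8 lay at 6995, 4947, 9834, 2123 and 5218 CPM in automatic 1 to 5. In manual 1 to 5 KRT8 lay at 12090, 3505, 18841.5, 3817 and 4918 CPM, so the groups overlapped. Its difference was -0.57 ± 0.46 (-0.41 ± 0.48) and did not pass the unadjusted level in either analysis. Counts of keratins rest on estimates that divide reads among close relatives, which makes these values less certain. KRT7, a further keratin of the same epithelia, was the 1 member of its list above 0, at 0.77 ± 0.82 (0.87 ± 0.58). In that list of keratins and desmosome genes 10 of 11 members kept lay below 0, 3 of them at the unadjusted level, KRT18, KRT19 and the desmosomal cadherin DSC2, but the median was only -0.15 (-0.41 without the low-detection libraries). Over all genes 52.9% lay below 0 and 0.881% were lower at that level. The list's summed level was 10729.5, 9263, 15169, 5361 and 9848 CPM in automatic 1 to 5 and 18405, 8860.0, 35802, 9854 and 11881 CPM in manual 1 to 5, and it overlapped.

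PLS1, plastin 1, bundles the actin cores of microvilli. It lay at 186, 220.4, 262, 142 and 292 CPM in automatic 1 to 5 and 476, 766, 605, 642 and 787 CPM in manual 1 to 5. The groups were far apart and no library stood away from its own group. The difference was -1.57 ± 0.37 with an interval of -2.35 to -0.80, and -1.33 ± 0.37 without the low-detection libraries (unadjusted p = 4.57e-04 and 0.00355, and an edgeR adjusted p of 0.9999 with all libraries). In vivo the level was 443 ± 234 CPM. SCIN, an actin-severing protein, lay at 18.5, 0, 13.6, 32.7 and 24.3 CPM after automatic and 106, 32.5, 69.3, 38.4 and 68.0 CPM after manual denudation, with automatic 2 at 0, and overlapped only by automatic 4 at 32.7 CPM and manual 2 at 32.5 CPM. Its difference was -1.82 ± 0.96, and -1.89 ± 0.47 without the low-detection libraries.

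LRP2, or megalin, is a large endocytic receptor of absorptive epithelia and is often used as a hypoblast marker. It lay at 637, 613, 1005, 676 and 612 CPM in automatic 1 to 5 and 1184, 924, 2630.1, 1917 and 1807 CPM in manual 1 to 5. Automatic 3 was above manual 2, and otherwise the groups were apart, with a difference of -1.26 ± 0.30 and -1.30 ± 0.31 without the low-detection libraries (edgeR adjusted p = 0.850). Both analyses left it as the hypoblast list's member with the smallest p, while 13 of 20 members of that list lay above 0, with a median of 0.17 (0.0089 without the low-detection libraries) and 1 further member, APOA1, lower at the unadjusted level. FXYD4, a regulator of the sodium pump, lay at 53.5, 125, 150.004, 33.6 and 78.5 CPM after automatic and 184, 178, 416, 179 and 409.9 CPM after manual denudation without overlap and differed by -1.63 ± 0.47 (-1.64 ± 0.48). AKR1B1, an aldose reductase that also makes prostaglandin F2 alpha in cattle, lay at 125, 326, 142, 169 and 167 CPM in automatic 1 to 5 and 431, 349, 625, 360.2 and 379.9 CPM in manual 1 to 5. The groups did not overlap, automatic 2 was nearest to the manual libraries, and the difference of -1.21 ± 0.38 was -1.62 ± 0.37 without the low-detection libraries. HEBP2, a heme-binding protein, was nearly undetected after automatic denudation, at 1.5002, 0, 0.0726, 0.387 and 0 CPM, and present in every manual library, at 12.2, 4.31, 18.8, 29.2 and 10.7 CPM. In vivo it lay at 49.3 ± 29.97 CPM, and its fitted difference was -5.25 ± 1.41 (-5.05 ± 1.41).

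The named trophectoderm list leaned lower with a wide spread. Of 26 genes, 23 were kept, 17 below 0, with a median of -0.39 (15 below 0 and -0.56 without the low-detection libraries), 3 lower at the unadjusted level and none without overlap. Over all genes 52.9% lay below 0, 0.881% were lower at that level and 0.527% were lower without overlap. The 3 lower members were SLC7A4, PTGES and PTGS2, and the last 2 are described again with the prostaglandin genes. SLC7A4, a member of the amino acid transporter family, lay at 71.1, 104, 244, 104 and 176 CPM in automatic 1 to 5 and 181, 145, 1424, 198 and 261 CPM in manual 1 to 5. Its difference of -1.66 ± 0.57 (-1.63 ± 0.69) rests on manual 3 and was -0.47 without it. The median of the list ranged from -0.88 to -0.10 on leaving out 1 library. Its summed level was 1464, 1402, 2502, 3485 and 1613 CPM in automatic 1 to 5 and 2164, 1951, 3879, 3879.6 and 2355 CPM in manual 1 to 5, and the low-detection library automatic 4 reached the upper manual values. The transcription factor TEAD4 overlapped between the groups and spanned 0.664 to 134 CPM after automatic and 22.1 to 106 CPM after manual denudation.

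Prostaglandin and steroid synthesis genes gave the lowest list median with all libraries. Of 16 members kept, 13 lay below 0 with a median of -1.04, 5 were lower and 0 higher at the unadjusted level, and 2, AKR1B1 and CYP11A1, did not overlap, where 0.881% of all genes were lower at that level and 0.527% lower without overlap. With the low-detection libraries left out 15 lay below 0, with a median of -0.70. PTGS2, the inducible cyclooxygenase, lay at 305, 241, 893, 806 and 284 CPM in automatic 1 to 5 and 720.0, 678, 1154, 1899 and 802 CPM in manual 1 to 5. Automatic 3 and automatic 4 reached the lower manual libraries and the other 3 did not, with a difference of -1.05 ± 0.48 (-1.19 ± 0.45). PTGES, prostaglandin E synthase, lay at 14.3, 9.78, 28.8, 17.4 and 5.98 CPM after automatic and 56.1, 9.09, 96.5, 39.4 and 43.2 CPM after manual denudation and differed by -1.68 ± 0.68 (-1.82 ± 0.55). CYP11A1, which cuts the cholesterol side chain at the start of steroid synthesis, lay at 18.1, 0.0779, 13.9, 4.04 and 6.92 CPM in automatic 1 to 5 and 34.3, 41.9, 129.8, 35.4 and 21.1 CPM in manual 1 to 5. The groups did not overlap, automatic 1 was just below manual 5, and the difference of -2.61 ± 0.92 (-2.06 ± 0.73) was -1.93 without manual 3. HSD3B1, which makes progesterone, lay at 10.7, 55.0, 55.7, 19.3 and 14.4 CPM after automatic and 53.2, 39.7, 168, 124 and 144 CPM after manual denudation and differed by -1.77 ± 0.65 (-2.16 ± 0.61). Automatic 2 and automatic 3 overlapped manual 1 and manual 2. In vivo PTGS2, CYP11A1 and HSD3B1 lay at 1228 ± 884, 104 ± 46.5 and 179 ± 125 CPM (SD, n = 5).

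Steroid genes are also expressed by cumulus and granulosa cells, the cells that denudation removes. The list of their markers had a summed level of 198, 186, 246, 88.4 and 180.3 CPM in automatic 1 to 5 and 285, 303, 439, 251 and 346 CPM in manual 1 to 5, so the manual libraries were all higher, by little at the nearest pair. In vivo the sum ran from 159 to 709.9 CPM. SERPINE2, a protease inhibitor, lay at 10.5 to 154 CPM after automatic and 64.9 to 200.2 CPM after manual denudation. The part of the sum that came from SERPINE2 and HSD3B1 varied between libraries. Of 23 markers measured, FOXL2 was the 1 at 0 in all 10 libraries, and 4 stayed under 1 CPM in each. The hyaluronan synthase HAS2, PTX3 and TNFAIP6, which build the expanded cumulus matrix, reached at most 1.33 CPM in any library, and VCAN at most 4.18 CPM. INHA, the inhibin alpha subunit of granulosa cells, was detected in 1 of 10 libraries at 0.156 CPM. The markers CYP19A1 and STAR reached higher levels than these. CYP19A1 lay at 53.01 CPM in manual 2 and at most 4.93 CPM in any other of the 10 libraries. STAR lay at 7.72, 41.18, 19.25, 0 and 4.33 CPM in automatic 1 to 5. In manual 1 to 5 STAR lay at 33.48, 47.99, 24.15, 22.66 and 27.48 CPM, and automatic 2 alone overlapped. Of the 10 markers kept 8 lay below 0, with a median of -0.78 (-0.54 without the low-detection libraries), and 1, HSD3B1, was lower at the unadjusted level. The shares over all genes were 52.9% below 0 and 0.881% lower at that level.

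Secreted trophoblast products were lower in most members, and their counts are also divided among close relatives. Of 10 members kept 8 lay below 0 with a median of -0.87 (-0.90 without the low-detection libraries), 3 of them at the unadjusted level, PAG2, PAG11 and LGALS3. Over all genes 52.9% lay below 0 and 0.881% were lower at that level. PAG2, a pregnancy-associated glycoprotein, lay at 32.4, 0.818, 65.9, 125 and 57.1 CPM in automatic 1 to 5 and 106, 135, 403, 203 and 255 CPM in manual 1 to 5. The low-detection library automatic 2 was near 0 and the low-detection library automatic 4 was the 1 that overlapped, and the difference was -1.97 ± 0.72, or -2.20 ± 0.45 without the low-detection libraries (edgeR adjusted p = 0.638). PAG11 was detected above 1 CPM in manual 3, 4 and 5 alone. LGALS3, galectin 3, lay at 1379.6, 2848, 3468, 3561 and 3237 CPM after automatic and 4228, 5584, 6181, 5006 and 4907 CPM after manual denudation without overlap and differed by -0.84 ± 0.29 (-0.90 ± 0.37). Interferon tau, the signal of the conceptus to the cow, was counted under 2 symbols. IFNT lay at 17.3, 69.6, 50.5, 4.31 and 1.43 CPM after automatic and 29.3, 153, 145, 80.0 and 40.4 CPM after manual denudation and IFNT3 at 7.59, 55.2, 39.3, 0.442 and 8.24 CPM after automatic and 22.8, 60.4, 178, 51.1 and 107 CPM after manual denudation. Both overlapped between groups, with differences of -1.65 ± 1.097 (-1.64 ± 1.01) and -1.92 ± 1.23 (-2.26 ± 0.81) that did not pass the unadjusted level with all libraries.

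**Figure D4:**
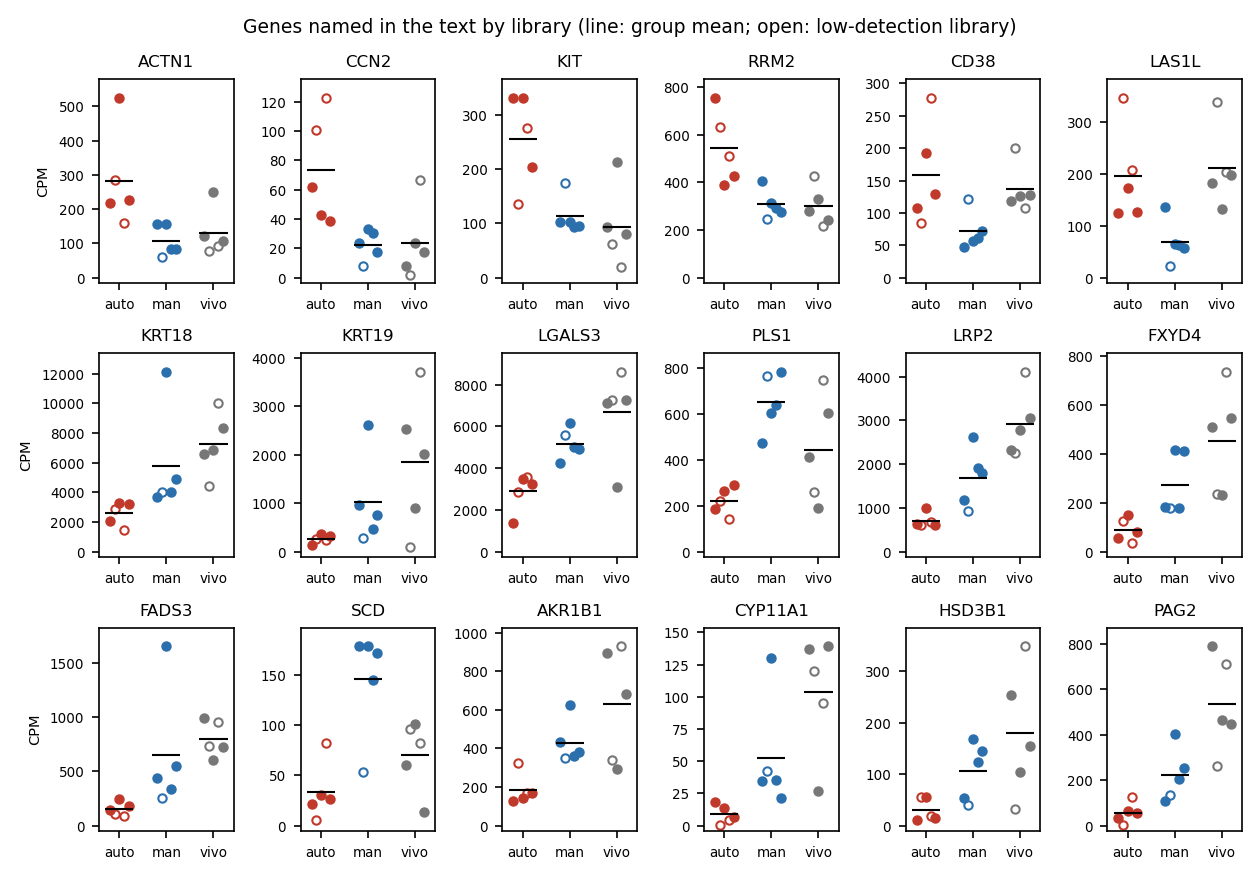
CPM in each library of 18 genes described in the text, after automatic (auto) and manual (man) denudation and in vivo (vivo). Lines are means of 5 libraries and open circles low-detection libraries; the upper row holds genes higher after automatic denudation and the 2 lower rows genes lower after it, and KRT18 and FADS3 show manual 3 apart from the other manual libraries.

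With all libraries fewer genes lay higher than lower without overlap, 16 against 61, and without the low-detection libraries the order turned, 359 against 333. ACTN1, alpha-actinin, which crosslinks actin filaments at adhesions, lay at 217, 284, 526, 158 and 225 CPM in automatic 1 to 5 and 156, 58.8, 157, 83.5 and 83.5 CPM in manual 1 to 5. The groups came close at automatic 4, manual 1 and manual 3 but did not overlap, with a difference of 1.39 ± 0.45, and 1.45 ± 0.42 without the low-detection libraries. TPM1, a tropomyosin that lines actin filaments, lay at 357, 279, 243, 332 and 379 CPM after automatic and 212, 205, 213, 206 and 184 CPM after manual denudation, also without overlap. Its difference was small, 0.64 ± 0.35 (0.70 ± 0.26), and the manual libraries lay close together. CCN2, a secreted matrix protein and a well known target of the YAP coactivator, lay at 61.7, 101, 42.4, 123 and 38.9 CPM in automatic 1 to 5 and 23.4, 7.69, 33.3, 30.5 and 17.7 CPM in manual 1 to 5. It did not overlap either, was highest in automatic 2 and automatic 4, and differed by 1.71 ± 0.84 with all libraries and 0.89 ± 0.49 without those. Its list, the Hippo pathway and YAP targets, had 14 of 20 members above 0 and a median of 0.32 (0.38 without the low-detection libraries), with none at the unadjusted level. TEAD2, a DNA-binding partner of YAP in that list, lay the other way without overlap, at 1.91, 0, 0.750, 1.33 and 0.458 CPM after automatic and 2.58, 9.19, 3.45, 7.13 and 5.74 CPM after manual denudation.

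KIT, the receptor for stem cell factor, lay at 331, 136, 332, 276 and 204 CPM in automatic 1 to 5 and 103, 175, 102, 92.8 and 95.9 CPM in manual 1 to 5. Only 1 pair was out of order, the low-detection libraries automatic 2 and manual 2, and the difference of 1.17 ± 0.50 was 1.57 ± 0.35 without the low-detection libraries (edgeR adjusted p = 0.850). CD38, an enzyme that degrades NAD, lay at 108, 84.2, 192, 278 and 129 CPM after automatic and 47.1, 121, 56.1, 61.8 and 72.3 CPM after manual denudation, with manual 2 the 1 manual library among the automatic ones, and differed by 1.14 ± 0.43 and 1.29 ± 0.30. LAS1L, which processes ribosomal RNA precursors, lay at 125, 348, 172, 208 and 126 CPM after automatic and 137, 21.7, 65.5, 62.1 and 57.0 CPM after manual denudation and differed by 1.51 ± 0.47 (0.83 ± 0.36), and manual 1 alone overlapped. RBBP8, which trims broken DNA ends for repair, lay at 120.5, 95.5, 74.0, 251 and 54.3 CPM after automatic and 65.3, 27.7, 42.6, 33.9 and 29.8 CPM after manual denudation and differed by 1.58 ± 0.57 (0.97 ± 0.47), with manual 1 again the overlapping library. RBBP8 did not pass the unadjusted level without the low-detection libraries.

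RRM2, the small subunit of ribonucleotide reductase, makes DNA precursors. It lay at 755, 632, 387, 509 and 426 CPM in automatic 1 to 5 and 406, 245, 313, 294 and 276 CPM in manual 1 to 5. Automatic 3 was below manual 1 and every other pair kept the order, with a difference of 0.82 ± 0.30 (0.72 ± 0.29). The cell cycle and replication list leaned the same way in many small steps: 31 of 40 members lay above 0 with a median of 0.27, and RRM2 was the 1 at the unadjusted level, where 47.1% of all genes lay above 0. Over the other libraries alone 31 of 41 lay above 0, with a median of 0.23, and 3 were higher at the unadjusted level, among them MCM6, a subunit of the replicative helicase, at 0.96 ± 0.36 against 0.69 ± 0.38 with all libraries. The list sum was 8301, 6599, 5643, 7407 and 6371 CPM in automatic 1 to 5 and 6608, 6839.7, 5406, 5336 and 5042 CPM in manual 1 to 5, and the groups overlapped.

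The remaining genes chosen by the rule as higher were ZNF300, TRIO, MGC148328, R3HDM1, FIP1L1 and LEO1. ZNF300, a zinc finger protein, lay at 24.6, 88.0, 16.2, 91.4 and 48.7 CPM in automatic 1 to 5 and 12.4, 0.0469, 0, 1.63 and 0.474 CPM in manual 1 to 5, without overlap, and differed by 4.21 ± 1.72 (3.05 ± 1.52), or 6.64 without manual 1. TRIO, an exchange factor for small GTPases, lay at 4.78, 104, 14.8, 0 and 22.2 CPM after automatic and 0.369, 0, 1.90, 0.566 and 1.53 CPM after manual denudation, and its difference of 5.06 ± 1.64 (3.69 ± 0.98) was 3.58 without automatic 2. MGC148328 reached 62.6 CPM in automatic 4 and at most 7.55 CPM elsewhere. R3HDM1 lay at 22.9, 27.9, 29.1, 48.1 and 19.7 CPM after automatic and 17.8, 8.81, 1.55, 14.7 and 14.004 CPM after manual denudation without overlap, and differed by 1.38 ± 0.97 (1.01 ± 0.78). FIP1L1, a polyadenylation factor, and LEO1, a subunit of the PAF1 elongation complex, came up without the low-detection libraries at 1.21 ± 0.34 and 1.09 ± 0.32. With all libraries FIP1L1 differed by 1.06 ± 0.71. LEO1 was listed at 0 in automatic 2 and at 6.36 CPM in automatic 4, and with all libraries its difference was 0.40 ± 1.02.

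Manual 1 and manual 3 carried transcripts that the others mostly lacked. IFI6, an interferon-induced gene, lay at 54.8, 22.9, 172, 1.98 and 0 CPM in manual 1 to 5 and at no more than 0.563 CPM in any automatic library, with a fitted difference of -8.54 ± 2.50 (-8.03 ± 2.57). Genes of the same response were high in the same places: IFIT1 at 75.0, 0.0469, 69.6, 6.003 and 0.158, MX1 at 45.1, 0, 60.4, 4.37 and 0, OAS1Y at 21.9, 0, 29.0, 0 and 0 and IFI44 at 8.97, 0.187, 34.1, 0 and 6.79 CPM in manual 1 to 5. Of these, MX1 alone exceeded 1 CPM after automatic denudation, at 11.01 CPM in automatic 5. The interferon list had 9 of 15 members below 0, a median of -0.18, and 2 lower at the unadjusted level, IFI6 and IFI30. Among all genes kept, 52.9% lay below 0 and 0.881% were lower at that level. Leaving out automatic 2 moved the list's median to -2.19, and without the low-detection libraries it was -1.47 over 20 members kept. IFI30, a lysosomal thiol reductase that interferon can induce, did not follow manual 1 and 3: it lay at 5.19, 0, 5.35, 0 and 7.91 CPM in automatic 1 to 5 and 36.2, 36.1, 74.4, 25.8 and 37.3 CPM in manual 1 to 5, without overlap. It differed by -3.50 ± 1.46, and by -2.80 ± 0.50 without the low-detection libraries (edgeR adjusted p = 0.387).

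Markers of stroma were high in the same 2 manual libraries. POSTN, a matrix protein of fibroblasts, lay at 249, 4.50, 260.0, 3.39 and 0 CPM in manual 1 to 5 and 10.97, 80.8, 0.484, 14.5 and 0.161 CPM in automatic 1 to 5, so automatic 2 also held some. VIM, a filament of mesenchymal cells, lay at 61.6, 0.0937, 33.4, 5.25 and 0.369 CPM after manual and 3.34, 47.4, 1.91, 0.995 and 0 CPM after automatic denudation and COL3A1, a fibrillar collagen, at 40.7, 0.890, 23.1, 0 and 0 CPM after manual and 0, 79.3, 0, 0 and 0 CPM after automatic denudation. The summed stroma and tract epithelium list was 608, 176, 581, 59.9 and 44.3 CPM in manual 1 to 5 and 85.8, 298, 66.9, 111 and 114 CPM in automatic 1 to 5. Manual 1 and manual 3 were also high for several genes above, KRT19 and IFI6 among them, and the part of such cells in those values was not tested. HBB, beta globin, was at 1.34, 184, 17.8, 0.111 and 190.4 CPM in automatic 1 to 5 and 14.96, 77.4, 4.87, 6.88 and 1.47 CPM in manual 1 to 5, high in automatic 2 and 5, while sperm transcripts summed to at most 29.6 CPM and oocyte transcripts to at most 62.2 CPM in any of the 10 libraries.

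Stress and housekeeping lists had medians from -0.49 to 0.07 with all libraries, while some single members differed by more. The share of all genes below 0 was 52.9%. Of 22 unfolded protein response genes 19 lay below 0 with a median of -0.49 (-0.37 without the low-detection libraries), none at the unadjusted level, and the median shrank to -0.05 without manual 3. SDF2L1, an endoplasmic reticulum cochaperone, and SEL1L, of the degradation complex there, differed by -1.37 ± 0.54 and -1.01 ± 0.44 without the low-detection libraries and by -1.69 ± 0.95 and -0.89 ± 0.47 with all. Cytosolic ribosomal protein genes lay below 0 for 54 of 59 members, each by little, with a median of -0.20 and a range of -0.51 to 0.11. Without the low-detection libraries 57 of these genes lay below 0, with a median of -0.40 and a range of -1.01 to 0.091. Their summed level tracked the libraries and not the groups, with 40499, 102062, 32899, 82101 and 65546 CPM in automatic 1 to 5 and 47365, 124656, 49188, 62753 and 86331 CPM in manual 1 to 5, and the median turned to 0.03 without manual 2. RPL13A was the member with the smallest p, at -0.65 ± 0.29 without the low-detection libraries and -0.47 ± 0.31 with all. Heat shock genes (11 of 18 above 0, median 0.07), apoptosis and p53 targets (15 of 27 above 0, median 0.05, or -0.021 without the low-detection libraries), immediate early genes (6 of 17 above 0, median -0.18), antioxidant genes (5 of 24 above 0, median -0.20) and nuclear genes of oxidative phosphorylation (19 of 47 above 0, median -0.06, or -0.18 without the low-detection libraries) had 1 member at the unadjusted level among them, TNFRSF1A, a receptor for tumour necrosis factor, which was lower. Leaving out the low-detection libraries, HSPA9, the mitochondrial HSP70, differed by 0.64 ± 0.29 and GPX4, which reduces lipid peroxides, by -0.95 ± 0.31, against 0.47 ± 0.32 and -0.56 ± 0.34 with all libraries.

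Nutrient genes were mixed. Amino acid response genes lay above 0 for 20 of 28 members with a median of 0.11 (0.25 without the low-detection libraries), and none passed the unadjusted level. ASNS, asparagine synthetase, lay at 766, 273, 427, 129.9 and 1102 CPM in automatic 1 to 5 and 703, 285, 344, 207 and 228 CPM in manual 1 to 5 and was highest in automatic 5, with 0.61 ± 0.66 (1.06 ± 0.43), or 0.20 without that library. Glycolysis genes lay below 0 for 17 of 25 members with a median of -0.26 (-0.031 without the low-detection libraries). SLC16A1, a lactate and pyruvate carrier, lay at 758, 286, 582, 174 and 541 CPM after automatic and 956, 721, 1013, 706 and 736 CPM after manual denudation and differed by -0.82 ± 0.37 (-0.42 ± 0.29), and the low-detection libraries automatic 2 and 4 were its lowest. Without them SLC16A1 did not pass the unadjusted level. TPI1, a glycolytic enzyme, was listed at 0 in manual 2 and at 0.442 CPM in automatic 4, both low-detection libraries. It lay at 139 CPM in automatic 2, also low-detection, and at 8.38 ± 6.79 CPM in vivo (SD, n = 5). Whether a 0 there is a failed estimate was not tested. Without the low-detection libraries TPI1 differed by -1.74 ± 0.57, against -1.23 ± 1.28 with all libraries. Blastocoel transport and junction genes were balanced, 14 of 26 above 0 with a median of 0.12 (0.22 without the low-detection libraries). AQP11, an aquaporin, differed by 1.30 ± 0.55 without the low-detection libraries and 1.67 ± 1.40 with all.

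The other lists gave no member at the unadjusted level with all libraries beyond those named. Epiblast genes lay above 0 for 12 of 21 (median 0.15, or 0.021 without the low-detection libraries), with KIT higher and NODAL, a TGF-beta family ligand, lower. The value of NODAL rests on manual 1 alone at 1.78 CPM, since 0 counts were listed in every other automatic and manual library. Without the low-detection libraries PRDM14 and SOX15, both expressed in pluripotent cells, differed by 1.31 ± 0.54 and 1.33 ± 0.57, against 1.1498 ± 0.85 and 1.09 ± 0.90 with all. Among cytoskeleton genes ACTN1 was higher and PLS1 lower at that level. DNA and histone modifying genes lay above 0 for 18 of 26 (median 0.23, or 0.061 without the low-detection libraries), and KAT2A, a histone acetyltransferase, differed by 2.21 ± 0.93 without the low-detection libraries and 1.105 ± 1.51 with all. PLEKHO2, a pleckstrin homology protein named for its lack of overlap, lay at 3.75, 0, 18.1, 0 and 17.8 CPM after automatic and 58.8, 32.1, 84.9, 33.5 and 24.5 CPM after manual denudation and differed by -2.56 ± 1.51 (-1.91 ± 0.62).

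**Figure D5:**
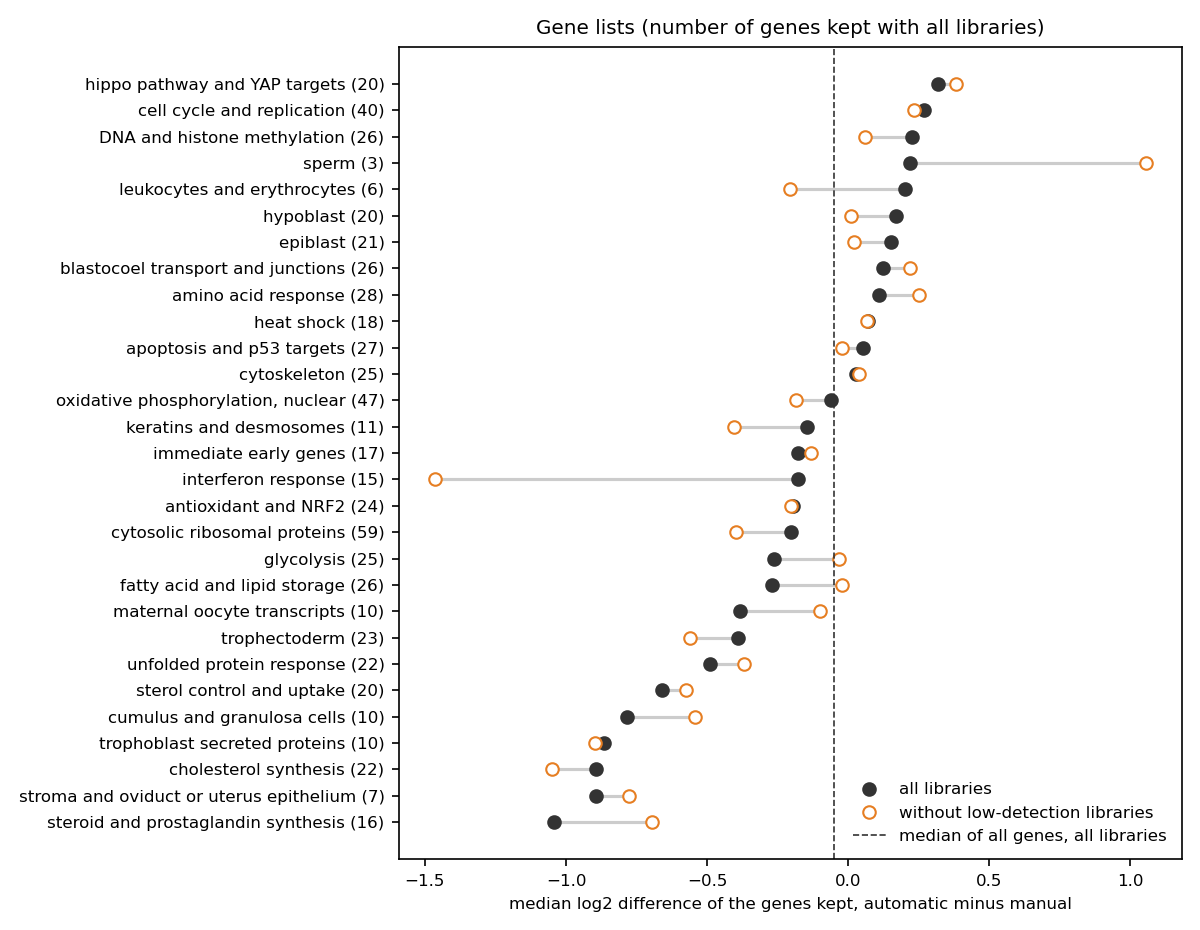
Median log2 difference (automatic minus manual) of the genes kept in each of 29 gene lists, with all libraries (filled) and without low-detection libraries (open); the number of genes kept with all libraries is in parentheses. The dashed line is the median of all genes, -0.05, and both marks of cholesterol synthesis and of steroid and prostaglandin synthesis lie well below it.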

How the data were processed

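The authors deposited 1 table of counts per gene, whole numbers that are not scaled to a common total. The submitters' processing notes name FastQC, fastp and kallisto, a tool whose output is estimated counts, and the deposited values were treated in that way. Which transcripts, build or molecular identifiers it used is not given in the sources used here. Genes with near copies share reads that such estimates divide. Rounding changed 0 values, and 1 line without a gene name was left out, which left 17259 genes, of which 17059 symbols matched RefSeq ARS-UCD2.0.

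Differences were tested with edgeR 4.0.16 in R 4.3.3 (quasi-likelihood F test, robust, TMM scaling, filterByExpr, all 15 libraries in 1 model with a mean per group, contrast automatic minus manual, Benjamini-Hochberg adjustment over all genes kept). limma 3.58.1 and DESeq2 1.42.0 gave alternatives. CPM use TMM-scaled totals; standard errors are those of the log2 difference. The code was tried on simulated counts. No pair of libraries of a group agreed within counting noise (lowest chi-square per degree of freedom 184).

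The comparison, gene lists and rules were chosen with earlier results of these data known. The 29 lists hold 754 symbols, of which 700 are in the table. Named genes were those called in either analysis; the 6 with the smallest p in each direction of either analysis with a mean of at least 5 CPM; the 4 largest differences in each direction among genes of at least 20 CPM without overlap; the member of each list with the smallest p in either analysis; and 10 fixed genes. Members with the smallest p above 0.05 are given by their lists' counts. SC5D, SQLE, NSDHL, IDI1, GGPS1, MSMO1, ACAT2, HMGCS1, FDFT1, TM7SF2, FADS1, FADS2, ELOVL1, ELOVL5, ELOVL6, SCD5, ACSS2, TPM1, TEAD2, TEAD4, PTGS2, DSC2, KRT7, KRT8, IFIT1, OAS1Y, MX1, IFI44, COL3A1, PRDM14, SOX15, IFNT, IFNT3, PAG11, APOA1, NODAL, TNFRSF1A and the cumulus markers CYP19A1, FOXL2, HAS2, INHA, PTX3, SERPINE2, STAR, TNFAIP6 and VCAN were chosen after their values were seen. Values of 2 cholesterol synthesis genes are not reported here.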

Additional observations from a re-analysis of the deposited data

Results flagged for a closer look

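In 17 of 122 groups of 5 libraries examined for the library measures and named genes, 1 library stood apart from the other 4. Its gap to the nearest exceeded 0.71 of the group's range. For normally distributed values chance flags about 1 in 20 groups. Several values here are at 0 counts and the genes were named from the same data, so the 17 groups cannot be set against that rate. Manual 5 had the lowest total of its group, 17.96 M counts. The values below are log2(CPM + 0.1). KRT18 in manual 3 stood high at 13.6, SLC7A4 in manual 3 at 10.5, LRP2 in automatic 3 at 9.97 and KIT in manual 2 at 7.45. Low values were LGALS3 in automatic 1 at 10.4, SCD in manual 2 at 5.74 and PAG2 in automatic 2 at -0.12. The floor of -3.32, a count of 0, was reached by AQP11 and SDF2L1 in automatic 4, SCIN in automatic 2, and TPI1 and GATA4 in manual 2, and TPI1 also stood low in automatic 4 at -0.88. Of these libraries, automatic 2, automatic 4 and manual 2 are the low-detection ones. Among genes near 0, MGC148328 in manual 4 stood apart at -0.73, SOX17 in automatic 3 at -1.65 and SOX17 in manual 3 at -2.62.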

How the results depend on the processing

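With all libraries edgeR called 0 genes under other scalings and filters, with in vitro libraries alone, with detected genes as a covariate and in every fit without 1 library (0 to 0), while DESeq2 called 57 (20 higher, 37 lower), limma-voom with quality weights 1 and edgeR without the low-detection libraries 1. After omission of the low-detection libraries 1 gene was called, CYP51A1; with in vitro libraries alone edgeR called 2 (CYP51A1 and SCD), with DESeq2 57 (12 higher, 45 lower), without libraries under 10000 genes 0, and without 1 library 0 to 0. Deviations of same-numbered libraries from their group means correlated at 0.380, 0.128, 0.183, 0.0698 and 0.0204, and 2 of 5 automatic libraries correlated best with their own number. These correlations were not adjusted for the number of detected genes, so they cannot settle whether equal replicate numbers mark a shared batch. With the replicate block edgeR called 0 genes in both analyses, the adjusted p of CYP51A1 without the low-detection libraries being 0.259, 244 genes passed the unadjusted level against 171, LEO1 turned to -0.37 and POSTN to 0.070. The share of lower genes among those at the unadjusted level was 59.6%, and 50.0% with library size alone, 42.7% with quality weights and 77.2% with detected genes as a covariate, which turned LEO1 to -0.10. Without 1 library that share ran from 27.2% (manual 1 left out) to 71.0% (automatic 3). That level was passed by 1026 genes with no filter, 537 with DESeq2, 761 with quality weights and 430 with the covariate. With quality weights the median of all genes moved from -0.05 to 0.11, with the covariate to -0.17 and with the block to -0.15.

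Lineage factors changed sign with quality weights (GATA3 0.041, POU5F1 -0.33, NANOG 0.12, SOX2 -0.49, GATA6 -0.48) and without the low-detection libraries (GATA3 0.0019, POU5F1 -0.23, SOX2 -0.23, GATA6 -0.34). Without 1 library POU5F1 ranged from -0.11 (automatic 4 left out) to 0.49, NANOG from -0.52 to 0.23 (manual 5; 0.15 for automatic 2), GATA6 from -0.15 (automatic 4) to 0.78, VIM from -3.68 to 0.16 (manual 1) and TM7SF2 from -8.37 to 2.48 (manual 3). Likewise the difference in detected genes ranged from -1038 to 231 (automatic 4; 54 for automatic 2), in mitochondrial share from -2.15 to 0.648 percentage points (manual 2), and in total from -0.253 (manual 5) to 3.998 M counts. The causes were not tested. Of 1650 gene values recomputed, 1616 kept their direction and side of the threshold, and of 580 list medians 573 moved by less than 1 SD of the list's level between libraries. With all libraries edgeR called no gene, so keeping the side of the threshold was nearly fixed in advance for the gene values. Gene values without an adjusted p were counted as keeping their side. The median of oxidative phosphorylation genes changed sign with library size alone. With all libraries the interval lay within 4-fold for 24.0% of genes, which limits what the absence of a call can say.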

Other observations

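The correlation of log2 CPM between pairs of libraries ranged from 0.583 to 0.891 among automatic libraries, from 0.611 to 0.803 among manual libraries and from 0.559 to 0.908 between them, with medians of 0.668, 0.7097 and 0.693. Genes varied more among automatic libraries, with a median SD of log2 CPM of 2.10 against 1.39, and 61.9% of genes had the larger SD there. Without the low-detection libraries the order was the other way, 0.618 against 1.0004 over 3 and 4 libraries. No gene was counted in all 5 libraries of one group and listed at 0 in all 5 of the other.

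Of the 61 genes below every manual library after automatic denudation, 26 had a higher mean in vivo than after manual denudation, among them KRT18, LGALS3, FXYD4, HEBP2, IFI30 and CYP11A1. CYP51A1, SC5D and FADS1 had an in vivo mean between the automatic and manual means, at 57.7 ± 57.0, 85.8 ± 41.6 and 68.6 ± 35.8 CPM (SD, n = 5). These in vivo values share no library with either group, and their differences from the groups were not tested here.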
